A study of Homo sapiens with 30 samples.

Results

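S249C_UTX cells are UMUC1 bladder cancer cells stably carrying 2 vectors, pBabe-puro with FGFR3 S249C and pCDH-blasticidin with wild type UTX (the protein of KDM6A). They were set against WTFGFR3_EV cells, which carry pBabe-puro with wild type FGFR3 and an empty pCDH-blasticidin vector, so that both changes differ at once between these groups. Each group had 3 libraries, 6 of the 30 libraries in the series and 6 of the 12 in its FGFR3 experiment. The other 6 of that experiment, 3 WTFGFR3_UTX and 3 S249C_EV libraries, carry 1 change each and were used to divide the net difference into its parts. All 4 groups share the UTX loss-of-function mutation of UMUC1, an FGFR3 vector, both drug-resistance genes, MEM with 10% serum and harvest on day 3 after plating. UMUC1 is 1 cell line, and the labels do not say whether the replicates were separate cultures or transductions, so p-values measure only the spread between these libraries, which may be technical.

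UTX is a histone demethylase that removes methyl groups from lysine 27 of histone H3 and works within the KMT2C and KMT2D enhancer complexes. FGFR3 is a receptor tyrosine kinase that signals through the MAPK cascade, and S249C is a frequent bladder cancer mutation that places an unpaired cysteine outside the membrane, so that receptors can pair without ligand. Loss of UTX and activation of FGFR3 are both common in bladder tumours, where cells range from basal and squamous states, marked by KRT5, KRT14 and cornified envelope genes, to luminal states, marked by uroplakins.

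RNA was sequenced and the deposited counts summed to between 21672408 and 28290664 per library. Levels are given as CPM, the gene's counts scaled to a common library total. Of 20073 genes in the table, 19399 had enough counts to be tested with edgeR's quasi-likelihood test over all 12 libraries, with p-values adjusted by the Benjamini-Hochberg method over all of them. "Called" means an adjusted p under 0.05, and errors of fold changes are standard errors (SE). The CPM values compare a gene between libraries, not genes with each other. S249C_UTX replicate 3 stood apart from its group, with a chi-square per degree of freedom of 11.6 and 9.99 against replicates 1 and 2, which differed from each other by 2.03. S249C_EV replicate 1 did likewise, at 11.1 and 11.3 against 3.91 between the other two. The 3 WTFGFR3_EV pairs lay between 2.67 and 4.39. The share of counts in mitochondrial rRNA and tRNA genes was 0.449% to 0.47% in S249C_UTX and 0.449% to 0.474% in WTFGFR3_UTX libraries, 0.295% to 0.412% in S249C_EV libraries, with replicate 1 the lowest, and 0.399% to 0.417% in WTFGFR3_EV libraries. It was thus higher in all 6 UTX libraries than in all 6 EV libraries and moved with the groups compared, and its part in the results was not tested.

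Both vectors were seen at the RNA level. KDM6A had 941, 946 and 699.6 CPM in S249C_UTX libraries and 863, 869 and 739 CPM in WTFGFR3_UTX libraries, against 10.1, 12.7 and 12.1 CPM in S249C_EV and 15.0, 17.0 and 15.5 CPM in WTFGFR3_EV libraries. It was therefore high in all 6 UTX libraries and low in all 6 EV libraries, and its net log2 fold change was 5.77 ± 0.12 (edgeR adjusted p = 4.33e-13). FGFR3 had 2624, 2601 and 2538 CPM in S249C_UTX libraries, 1288, 1246 and 1194 CPM in WTFGFR3_UTX, 2198, 2363 and 2405 CPM in S249C_EV, and 1227, 1377 and 1298 CPM in WTFGFR3_EV. Every S249C library lay above every wild type FGFR3 library, with a net log2 fold change of 0.99 ± 0.05 (edgeR adjusted p = 5.54e-09). The mutation and the higher FGFR3 RNA cannot be told apart here, and the counts do not separate vector from chromosomal transcripts.

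In S249C_UTX cells, 1984 genes were higher (10.2% of those tested) and 1425 lower (7.35%) than in WTFGFR3_EV cells, 3409 in all (17.6%). As a plain count without a test, the CPM ranges of the 2 groups did not overlap for 33.4% of genes. At 2-fold or more, 215 genes were higher (1.11%) and 192 lower (0.99%). Without S249C_UTX replicate 3 the counts were 1775 higher and 1155 lower, and without both libraries that stood apart 2085 and 1513. The count of lower genes was the least stable, at 948 without WTFGFR3_EV replicate 1 and 827 without WTFGFR3_EV replicate 3.

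The net log2 change equals the sum of an average UTX effect, taken over both FGFR3 forms, and an average S249C effect, taken over UTX and EV. The average UTX effect was called for 3113 genes higher (16%) and 2531 lower (13%), 29.1% in either direction, and the average S249C effect for 1089 higher (5.61%) and 1373 lower (7.08%), 12.7% in either direction. Taken as single steps, UTX called 9.06% of genes higher and 6.01% lower with wild type FGFR3, and 12.9% higher and 8.62% lower with S249C. S249C called 4.31% higher and 6.45% lower with EV, and 1.71% higher and 1.34% lower with UTX. The difference between the UTX steps, the interaction, was called for 0.572% of genes in the positive and 0.113% in the negative direction. Of the 3409 genes with a called net change, 2043 had only the UTX average called, 471 only the S249C average, 634 both and 261 neither. Among genes at least 2-fold higher, the UTX average was the larger part in 188 of 215, with a median of 82.7% of the net log2 change. Among those at least 2-fold lower it was the larger part in 133 of 192, with a median of 65.5%. The called changes of 2-fold or more thus lay mostly on the UTX side, and the S249C side was a larger part of the falls than of the rises by these medians, a difference that was not tested.

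**Figure D1:**
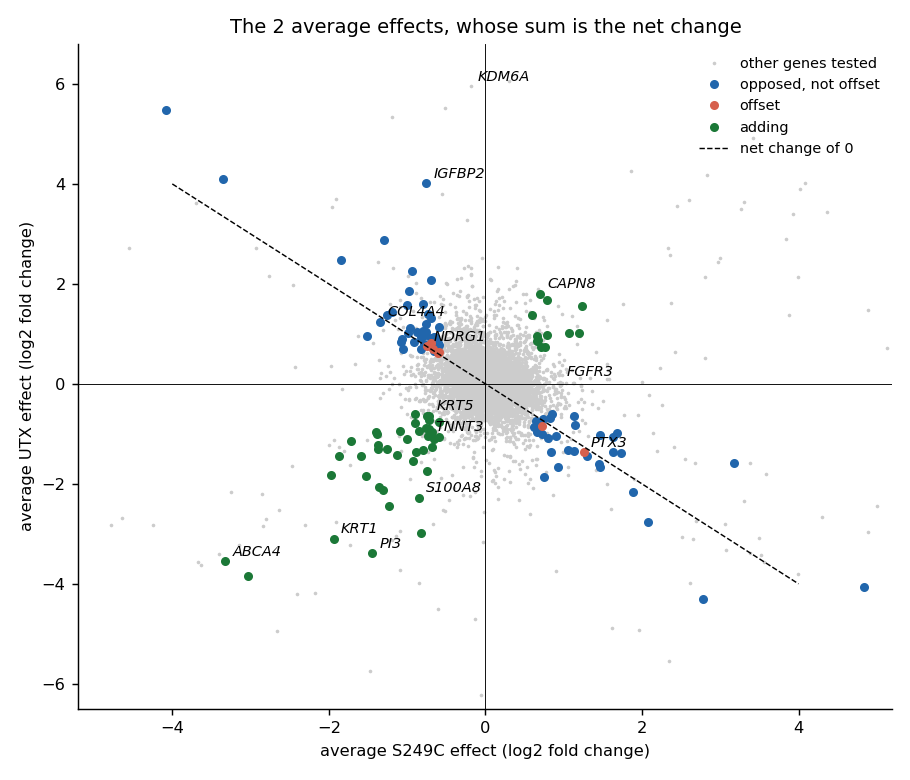
Average S249C effect (x axis, log2 fold change) against average UTX effect (y axis, log2 fold change), 1 point per gene tested; the dashed line marks a net change of 0, and a few points beyond the axes are not drawn. The 52 adding genes lie in the lower left and upper right, the 74 opposed genes in the other corners, and the 7 offset genes among them lie along the dashed line.

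Among the largest rises were several genes of membrane and secreted proteins. TMPRSS4, a membrane serine protease, had 139, 134 and 133 CPM in S249C_UTX libraries, against 22.9, 24.0 and 24.1 CPM in WTFGFR3_EV libraries. All 3 S249C_UTX values lay far above the others, with a net log2 fold change of 2.51 ± 0.07 (edgeR adjusted p = 2.87e-12), of which 2.35 was the UTX average and 0.17 the S249C average. TSPAN1, a tetraspanin of epithelial cells, had 117, 118 and 128 CPM in S249C_UTX libraries, against 22.8, 22.3 and 22.1 CPM in WTFGFR3_EV. The groups were far apart again, and its net log2 change of 2.44 ± 0.05 was made of 2.05 from UTX and 0.39 from S249C, both called. IGFBP2, a secreted binding protein of insulin-like growth factors, had 49.1, 47.1 and 60.5 CPM in S249C_UTX libraries, 61.5, 61.9 and 68.2 CPM in WTFGFR3_UTX, 2.71, 2.42 and 1.89 CPM in S249C_EV, and 5.26, 6.04 and 5.13 CPM in WTFGFR3_EV. It was lowest with S249C alone and high in every UTX library, so that its net change of 3.25 ± 0.12 joined a UTX average of 4.01 to an S249C average of -0.76, both called. The S249C step was -1.23 ± 0.17 with EV and -0.29 ± 0.09 with UTX, the latter not called (edgeR adjusted p = 0.095). PRRT4, a membrane protein, and TLL2, a metalloproteinase of the astacin family, rose by 2.35 and 2.16 on the log2 scale. TMEM265 rose by 5.003 ± 0.62 from very few counts, with 651 counts over the S249C_UTX libraries against 18 over the WTFGFR3_EV libraries.

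Among the largest falls were 3 genes of squamous or inflamed epithelium, KRT1, PI3 and S100A8. KRT1, the keratin of cornifying epidermis, had 0.257, 0.510 and 0.107 CPM in S249C_UTX libraries, 0.778, 1.21 and 1.40 CPM in WTFGFR3_UTX, 1.76, 2.46 and 3.40 CPM in S249C_EV, and 8.49, 11.4 and 9.15 CPM in WTFGFR3_EV. The 4 groups did not overlap, and each single change lay between the 2 ends. Its net log2 change was -5.04 ± 0.43, from -3.10 for UTX and -1.94 for S249C (edgeR adjusted p = 6.93e-08 for the net change). PI3, the elastase inhibitor elafin, had 0.184, 0.583 and 0.642 CPM in S249C_UTX libraries and 0.692, 1.03 and 1.40 CPM in WTFGFR3_UTX libraries, against 3.78, 3.29 and 5.03 CPM in S249C_EV and 13.4, 14.0 and 13.4 CPM in WTFGFR3_EV libraries. It followed the same order, and its net change of -4.84 ± 0.32 was made of -3.39 and -1.45. S100A8, a subunit of calprotectin, had 0.808, 1.02 and 1.39 CPM in S249C_UTX libraries, against 9.27, 9.13 and 9.94 CPM in WTFGFR3_EV, a net log2 change of -3.13 ± 0.20. The other large falls were ABCA4, a retinal lipid transporter, CYP1A2, a xenobiotic-metabolising cytochrome, KRT81, a hair keratin, ALPG, a germ cell alkaline phosphatase, and EYA2, a phosphatase and transcriptional co-activator, between -6.87 and -2.40 on the log2 scale.

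**Figure D2:**
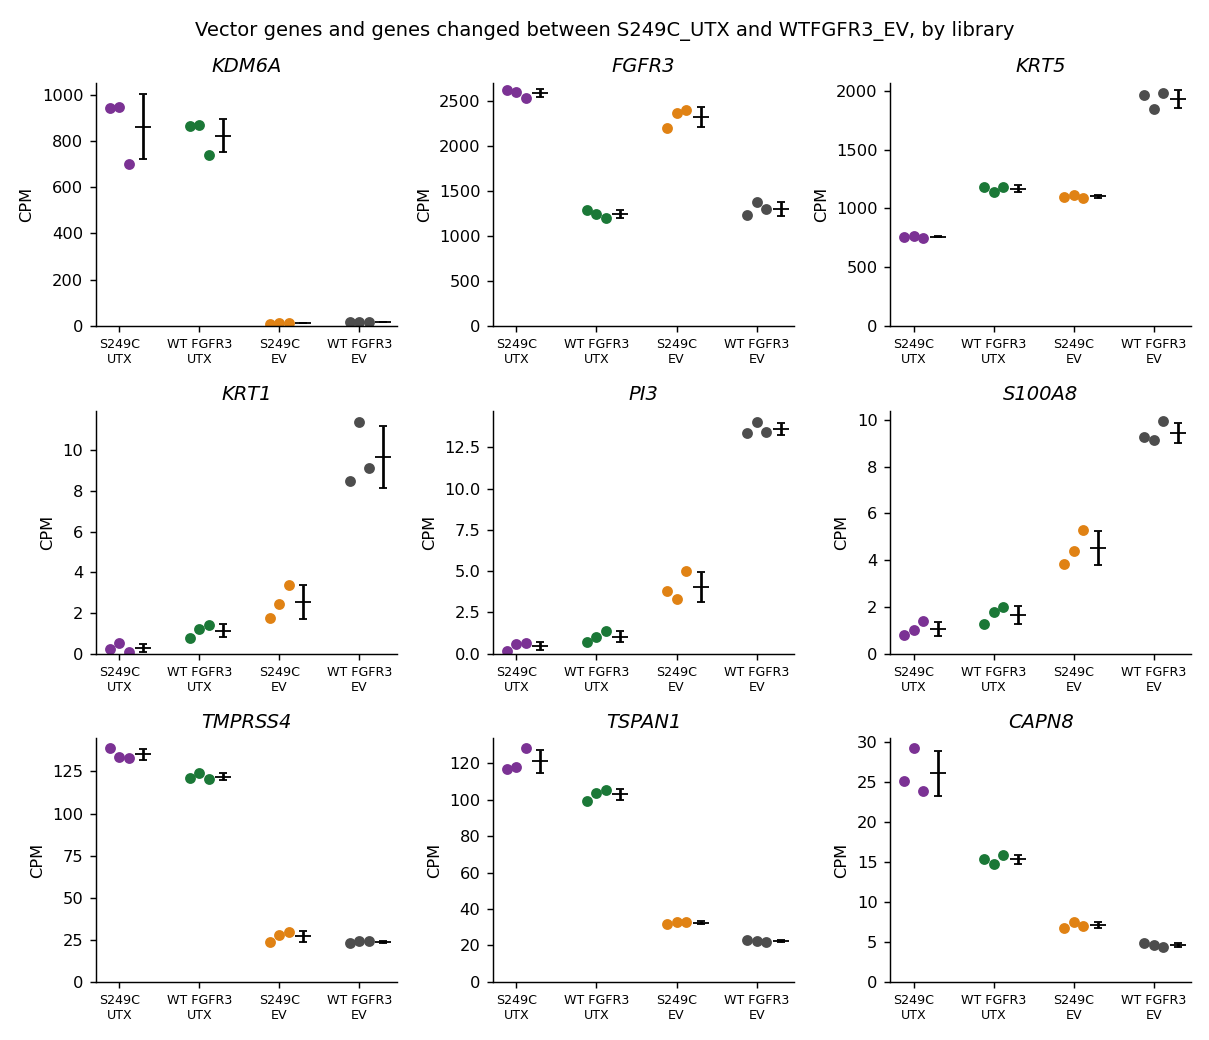
CPM (y axis, linear, from 0) of the 2 vector genes and 7 genes changed between S249C_UTX and WTFGFR3_EV in the 12 libraries of the FGFR3 experiment; each coloured dot is 1 library in replicate order and the black mark is the group mean with SD (n = 3). KRT5, KRT1, PI3 and S100A8 are lowest in S249C_UTX and highest in WTFGFR3_EV, while TMPRSS4, TSPAN1 and CAPN8 are highest in S249C_UTX.

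Genes on which the 2 changes added were defined as those with both averages called, of the same sign and each at least 1.5-fold. There were 52, of which 40 were lower and 12 higher in S249C_UTX cells. The definition set no minimum level beyond the filter for testing. Mean levels over the 12 libraries ran from 0.19 CPM for AIDAP2 and 0.34 CPM for CYP11A1 to 1240 CPM for KRT5, so genes with few counts are among the 52. Over all genes with both averages called, at any size, 363 of 1356 had the same sign, 204 higher and 159 lower, so lower genes were the larger number past the 1.5-fold limit and the smaller number without it. Without the 2 libraries that stood apart, 35 lower and 9 higher genes met the definition.

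KRT5, the basal keratin of urothelium, was among the lower adding genes. It had 759.8, 761.6 and 751.9 CPM in S249C_UTX libraries, 1185, 1137 and 1182 CPM in WTFGFR3_UTX, 1100.0, 1114 and 1090.0 CPM in S249C_EV, and 1967, 1847 and 1985 CPM in WTFGFR3_EV. Each change alone took it to a middle level, and both together took it below every other library. Its net log2 change of -1.35 ± 0.04 (edgeR adjusted p = 1.51e-11) was made of near-equal averages, -0.63 ± 0.03 for UTX and -0.72 ± 0.03 for S249C. The sum of the 2 single steps was -1.54, a larger fall than the net change. The interaction of 0.19 was not called (edgeR adjusted p = 0.22), which does not show that it was 0. The 40 lower genes also included KRT1, PI3, S100A8, KRT81, SERPINB3 (squamous cell carcinoma antigen) with a net log2 change of -3.67, CASP14 (a caspase of cornifying skin) with -2.35 and TNNT3 (a troponin) with -1.77. SERPINB3 and CASP14 had few counts, with means of 0.81 and 0.56 CPM over the 12 libraries. TENM2, a teneurin adhesion receptor, had 2.31, 1.64 and 1.68 CPM in S249C_UTX libraries, 3.81, 3.91 and 3.35 CPM in WTFGFR3_UTX, 3.05, 3.61 and 3.25 CPM in S249C_EV, and 7.46, 7.80 and 7.65 CPM in WTFGFR3_EV. The 2 single-change groups overlapped each other and lay between the 2 ends, and the net log2 change was -2.02 ± 0.14.

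For 9 of the 40 lower genes the interaction was also called (0.686% of all genes), and for these an average does not describe each step. ABCA4 had 0.110, 0.146 and 0.143 CPM in S249C_UTX libraries, 0.346, 0.186 and 0.195 CPM in WTFGFR3_UTX, 0.305, 0.317 and 0.227 CPM in S249C_EV, and 14.6, 17.5 and 16.1 CPM in WTFGFR3_EV. It was near 0 with either change alone, and the second change moved it by only -1.06 ± 0.38 for UTX with S249C and -0.84 ± 0.40 for S249C with UTX, neither called (edgeR adjusted p = 0.12 and 0.51). EYA2 showed the same shape at 1.14, 1.53 and 0.998 CPM in S249C_UTX libraries, 1.64, 1.82 and 1.48 CPM in WTFGFR3_UTX, 0.992, 1.27 and 1.51 CPM in S249C_EV, and 6.47, 6.12 and 6.78 CPM in WTFGFR3_EV. All 9 libraries with at least 1 change were alike and lay below the 3 with neither. CYP1A2, MAP2 (a microtubule protein) and CALML3 (an epithelial calmodulin) also had a called interaction and were lower in each single-change group than in WTFGFR3_EV cells. CALML3 had averages of -0.79 for UTX and -0.90 for S249C and an interaction of 2.97. By the fit, it was thus higher with both changes than with either alone. MAP2 was higher with both than with UTX alone, and CYP1A2 hardly moved with the second change. These 3 genes met the definition of adding without falling further with both changes than with either alone.

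The 12 higher adding genes included CAPN8, a calpain of the stomach lining. It had 25.1, 29.2 and 23.9 CPM in S249C_UTX libraries, 15.4, 14.8 and 15.9 CPM in WTFGFR3_UTX, 6.75, 7.54 and 6.99 CPM in S249C_EV, and 4.87, 4.59 and 4.34 CPM in WTFGFR3_EV. The 4 groups did not overlap and rose in steps, and the net log2 change of 2.503 ± 0.09 was made of 1.81 for UTX and 0.69 for S249C. CORO2B, an actin-binding coronin, had 33.0, 33.2 and 32.2 CPM in S249C_UTX libraries, 22.7, 21.8 and 20.0 CPM in WTFGFR3_UTX, 18.1, 24.0 and 20.9 CPM in S249C_EV, and 10.95, 12.8 and 12.3 CPM in WTFGFR3_EV. Its single-change groups overlapped, and its averages were close, 0.74 and 0.70. INPP5D, an inositol phosphatase, and STRA6, the cellular retinol importer, rose by 1.61 and 1.98, STRA6 at a mean of only 1.01 CPM over the 12 libraries. The interaction was called for 0 of the 12 by edgeR, and 2 had an unadjusted p under 0.05.

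**Figure D3:**
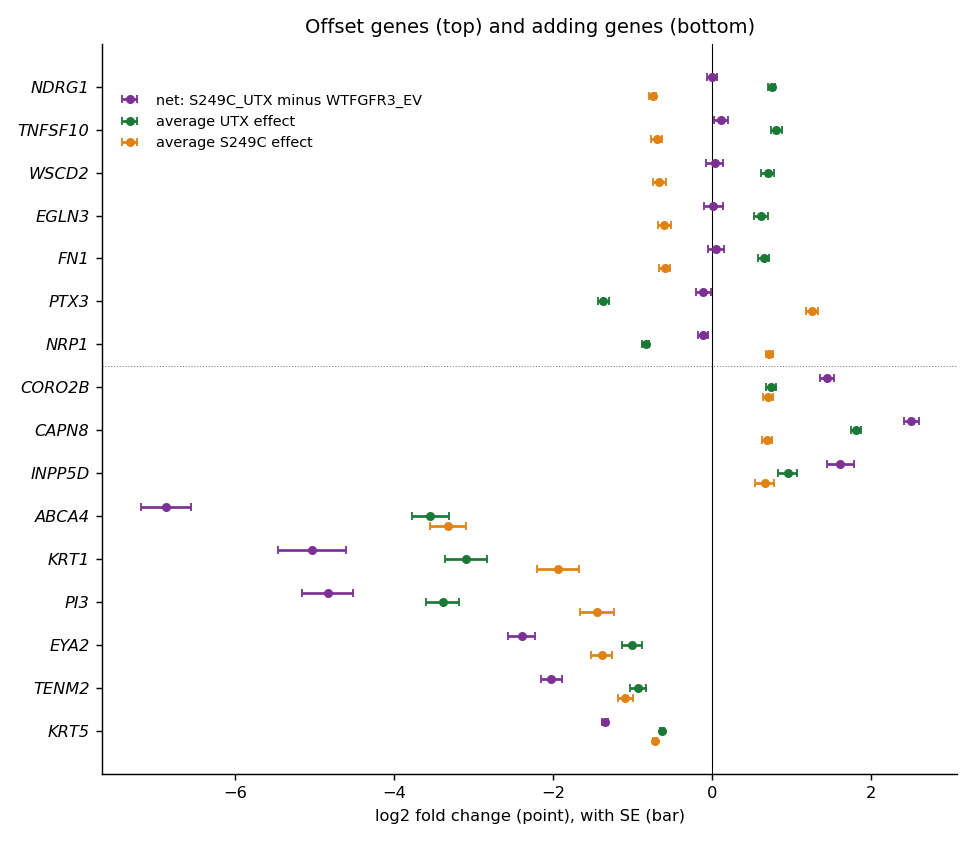
Net log2 fold change (purple), average UTX effect (green) and average S249C effect (orange) on the x axis for the 7 offset genes, above the dotted line, and 9 adding genes, below it; bars are SE from the edgeR fit. In the upper block the green and orange points lie on opposite sides of 0 with the purple point near 0, and in the lower block all 3 lie on 1 side.

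Opposed genes were those with both averages called, of opposite sign and each at least 1.5-fold. There were 74, of which 43 rose with UTX and fell with S249C on average and 31 did the reverse. For 9 of the 74 the interaction was also called (0.686% of all genes), and for these an average does not describe each step. IGFBP2, FBN1 and NRP1 were among them. The net change was not called for 57 of them, was called higher for 10 and lower for 7. At any size, 993 of the 1356 genes with both averages called had opposite signs, 635 with UTX up, and for 722 of them the net change was not called. Where it was called, it took the sign of the UTX average in 234 and of the S249C average in 37.

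A net change that is not called may still be large, so genes were counted as offset only when the 95% interval of the net log2 change lay between -0.32 and 0.32. Of all genes tested 39.9% had such an interval, among them 589 of the 993. Of the 74 opposed genes 7 met it. They were NDRG1, EGLN3, TNFSF10, WSCD2 and FN1 with UTX up and S249C down, and PTX3 and NRP1 with UTX down and S249C up. Just inside the bound were PTX3 and TNFSF10, whose intervals reached 1.24-fold, and just outside were COL4A4 at 1.26-fold and GABARAPL1 at 1.3-fold. The set changed with the libraries used. NDRG1 and NRP1 met the definition under 17 of 17 alternative analyses that kept its fold limits, WSCD2 under 15, FN1 under 12, TNFSF10 under 11, and EGLN3 and PTX3 under 9. With each average at least 2-fold, 1 of the 7 was left, PTX3. Without S249C_UTX replicate 3 there were 5 offset genes, 3 of them among these 7.

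NDRG1, a stress and hypoxia responsive gene linked to differentiation, had 29.3, 34.2 and 30.5 CPM in S249C_UTX libraries, 46.3, 49.9 and 48.3 CPM in WTFGFR3_UTX, 15.8, 18.04 and 17.3 CPM in S249C_EV, and 30.3, 32.2 and 31.3 CPM in WTFGFR3_EV. The single-change groups lay above and below, while the S249C_UTX range held the whole WTFGFR3_EV range. The averages were 0.75 ± 0.05 for UTX and -0.75 ± 0.05 for S249C, and the 95% interval of the net log2 change ran from -0.14 to 0.14. EGLN3, an oxygen-sensing prolyl hydroxylase, had 5.55, 4.92 and 5.85 CPM in S249C_UTX libraries, 9.21, 7.31 and 9.36 CPM in WTFGFR3_UTX, 3.32, 4.05 and 3.78 CPM in S249C_EV, and 5.56, 5.08 and 5.52 CPM in WTFGFR3_EV. Its ends overlapped too, with averages of 0.62 and -0.60. FN1, the matrix protein fibronectin, had 819.5, 819.5 and 621.9 CPM in S249C_UTX libraries, 1194, 1134 and 1001 CPM in WTFGFR3_UTX, 417, 479 and 508 CPM in S249C_EV, and 683, 770.1 and 730.5 CPM in WTFGFR3_EV. S249C_UTX replicate 3, which stood apart over all genes, was the lowest of its group and lay below every WTFGFR3_EV library, while the other 2 lay above them.

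TNFSF10, the death ligand TRAIL, had 11.3, 10.1 and 10.2 CPM in S249C_UTX libraries, 15.4, 15.3 and 14.3 CPM in WTFGFR3_UTX, 4.39, 5.67 and 5.75 CPM in S249C_EV, and 9.57, 9.90 and 9.82 CPM in WTFGFR3_EV. Its S249C_UTX values lay just above all WTFGFR3_EV values, by a net log2 change of 0.11 ± 0.09 that was not called. PTX3, a secreted pentraxin of innate immunity, had 7.71, 7.87 and 8.02 CPM in S249C_UTX libraries, 2.90, 3.63 and 3.98 CPM in WTFGFR3_UTX, 21.02, 22.05 and 22.03 CPM in S249C_EV, and 7.76, 9.21 and 8.56 CPM in WTFGFR3_EV. It had the largest opposed averages of the 7, -1.37 ± 0.07 for UTX and 1.26 ± 0.07 for S249C, and its ends overlapped. NRP1, the semaphorin and VEGF co-receptor neuropilin, had 40.5, 40.2 and 39.6 CPM in S249C_UTX libraries, 20.5, 21.6 and 19.7 CPM in WTFGFR3_UTX, 54.6, 61.1 and 65.7 CPM in S249C_EV, and 42.6, 45.1 and 42.6 CPM in WTFGFR3_EV. All S249C_UTX values lay just below all WTFGFR3_EV values, with a net change of -0.12 ± 0.06 that was not called.

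**Figure D4:**
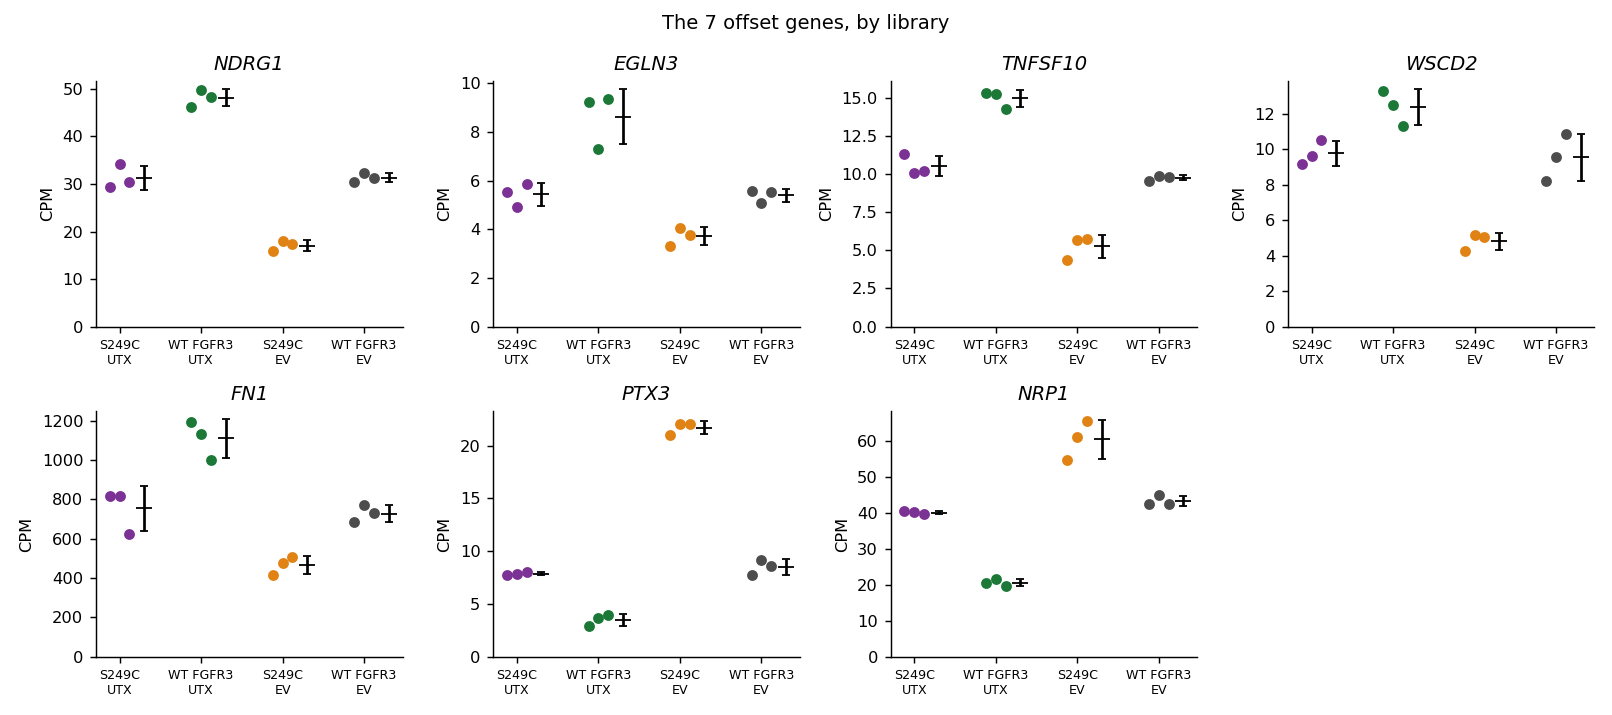
CPM (y axis, linear, from 0) of the 7 offset genes in the 12 libraries of the FGFR3 experiment; dots are libraries in replicate order and the black mark is the group mean with SD (n = 3). For the first 5 genes WTFGFR3_UTX is highest and S249C_EV lowest, for PTX3 and NRP1 the reverse, and in all 7 the S249C_UTX and WTFGFR3_EV levels are close.

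Other opposed genes, chosen here after their values were seen, included the basement membrane collagens COL4A3 and COL4A4, the matrix fibrillins FBN1 and FBN2 and the neurotrophin BDNF. COL4A4 had 5.69, 5.32 and 4.95 CPM in S249C_UTX libraries, 15.1, 15.8 and 12.9 CPM in WTFGFR3_UTX, 2.37, 2.62 and 2.27 CPM in S249C_EV, and 5.65, 5.58 and 5.99 CPM in WTFGFR3_EV. It rose by 1.24 with UTX and fell by 1.35 with S249C on average, and the net change of -0.11 ± 0.10 was not called. The 2 fibrillins went opposite ways, FBN1 with a net change of 1.59 ± 0.20 and FBN2 of -0.53 ± 0.09, both called. FBN1 fell to 0.191, 0.0793 and 0.151 CPM in S249C_EV, against 0.819, 0.955 and 0.749 CPM in WTFGFR3_EV, but reached 2.83, 2.73 and 2.07 CPM in S249C_UTX. Its interaction of 2.49 was called (edgeR adjusted p = 0.0051). By the fit, the fall with S249C lay almost wholly in EV cells, so its S249C average of -1.29 does not describe S249C with UTX. BDNF fell by 1.33 with UTX and rose by 1.05 with S249C, which left a net change of -0.28 ± 0.08.

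The squamous and cornified envelope list had 12 tested genes, of which 7 were lower and 1 higher in S249C_UTX cells, with a median net log2 change of -1.38 against -0.00458 over all genes. Counts of this and the following lists stand beside 10.2% higher and 7.35% lower over all genes tested. The lower genes were KRT1, PI3, S100A8, S100A9, SERPINB3, KRT10 and DSG1, of which DSG1 had the widest error, at -4.18 ± 1.21. The higher one was IVL (involucrin), with 48.5, 51.6 and 51.1 CPM in S249C_UTX libraries, against 36.0, 33.5 and 36.8 CPM in WTFGFR3_EV. S100A9 had 22.3, 20.9 and 24.8 CPM in S249C_UTX libraries, against 68.0, 70.9 and 72.3 CPM in WTFGFR3_EV. Among basal markers, 7 of 21 were higher and 6 lower. The UTX average was called higher for 13 of them and lower for 2, and the S249C average higher for 1 and lower for 11. KRT17 was opposed below the 1.5-fold limit, with 1151, 1243 and 1351 CPM in S249C_UTX libraries, 1327, 1379 and 1419 CPM in WTFGFR3_UTX, 833, 877.9 and 820.5 CPM in S249C_EV, and 1328, 1287 and 1281 CPM in WTFGFR3_EV. S249C_EV stood alone at the low end, and the net change of -0.06 ± 0.05 was not called. TP63, the master factor of basal cells, KRT14 and the desmosomal cadherin DSC3 fell in S249C_UTX cells, by 0.45, 0.45 and 1.11 on the log2 scale, with S249C averages of -0.49, -0.61 and -1.11. PKP1, a desmosomal plakophilin, rose by 1.43, with a UTX average of 1.76.

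Luminal markers were split, with 11 of 27 higher and 5 lower. The 4 uroplakins tested, proteins of the urothelial surface, did not move together. UPK1A fell, with a net log2 change of -1.69 ± 0.37 (edgeR adjusted p = 0.00408) that lay in the UTX average of -1.57. UPK1B rose by 0.29 ± 0.05, UPK2 by 0.60 ± 0.08 and UPK3B by 0.60 ± 0.06, so UPK1A had the widest error of the 4. UPK2 had 20.2, 18.8 and 22.5 CPM in S249C_UTX libraries, against 13.0, 14.1 and 13.4 CPM in WTFGFR3_EV. FOXA1 and ELF3, luminal transcription factors, rose by 0.35 and 0.31, while KRT13 fell by 0.49 and the terminal keratin KRT20, at 8 counts over the S249C_UTX libraries against 63 over the WTFGFR3_EV libraries, was near the floor of detection. Of 23 epithelial junction genes 15 were higher and 0 lower, with a median of 0.28. The count of lower genes was also 0 at an unadjusted p under 0.05 and by DESeq2. CDH1 (E-cadherin) had 625, 608 and 567.8 CPM in S249C_UTX libraries, against 432.6, 451.9 and 437.8 CPM in WTFGFR3_EV, and cingulin (CGN), claudin CLDN1 and the tight-junction scaffold TJP3 rose by 0.95, 0.58 and 0.96. The UTX average was called higher for 18 of the 23 and the S249C average for 1, with 5 lower. The mesenchymal list of 12 was split, with 2 higher and 3 lower. SPARC, a matrix glycoprotein, and the gelatinase MMP2 rose by 1.09 and 0.48, while CDH2 (N-cadherin), the transcriptional repressor SNAI2 and the membrane linker MSN fell by 0.97, 0.63 and 0.32.

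Of 25 FGFR and MAPK feedback and target genes 12 were higher and 3 lower, and for 8 both averages were called with opposite signs. SPRY4, a feedback inhibitor of receptor tyrosine kinases, had 17.4, 16.6 and 15.2 CPM in S249C_UTX libraries, 8.48, 8.76 and 8.34 CPM in WTFGFR3_UTX, 20.2, 20.6 and 21.3 CPM in S249C_EV, and 11.03, 13.1 and 11.95 CPM in WTFGFR3_EV. It was higher with S249C and lower with UTX, by averages of 0.86 and -0.42, and its net change was 0.44 ± 0.07. ETV5, a transcription factor of the PEA3 family, had averages of 0.60 for S249C and -0.41 for UTX, and its net change of 0.18 ± 0.08 was not called (edgeR adjusted p = 0.12). The MAPK phosphatases DUSP4 and DUSP6 rose by 0.64 and 0.35, and the 3 lower genes were SPRED1, an inhibitor of the cascade, CCND1 and the ephrin receptor EPHA4, which fell by between 0.21 and 0.41. EGR1, an immediate early factor, ran the other way, with 4.49 ± 0.251 CPM in S249C_UTX, 6.06 ± 0.149 CPM in WTFGFR3_UTX, 1.08 ± 0.242 CPM in S249C_EV and 1.57 ± 0.289 CPM in WTFGFR3_EV (SD, n = 3 each). It was high in the UTX libraries and lower with S249C, for a net change of 1.51 ± 0.16.

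Inflammatory and growth factor genes were called higher more often than lower, beside 10.2% higher and 7.35% lower over all genes tested. Of 12 NF-kB targets and cytokines 9 were higher and 1, SOD2, lower, with a median of 0.48. TNFAIP3, the NF-kB feedback inhibitor A20, had 21.5, 25.3 and 20.3 CPM in S249C_UTX libraries, against 10.5, 11.5 and 11.6 CPM in WTFGFR3_EV, with both averages called higher. IL6 and CXCL8, secreted cytokines, rose by 1.23 and 0.62. Of 12 ERBB receptors and ligands 6 were higher and 0 lower, among them HBEGF, at 42.3, 44.9 and 48.0 CPM in S249C_UTX libraries against 23.6, 22.3 and 19.7 CPM in WTFGFR3_EV, for a net change of 1.04 ± 0.08 from averages of 0.67 and 0.38. EREG, another EGF receptor ligand, rose by 0.56, nearly all in the S249C average of 0.55. YAP and TGF-beta targets had 10 of 20 higher and 2 lower, with ANKRD1 at 0.78, CCN1 at 0.53 and the inhibitory SMAD7 at -0.33. AP-1 genes had 5 of 10 higher and 0 lower, but only 2 higher without S249C_UTX replicate 2 or WTFGFR3_EV replicate 2. Antigen presentation genes had 6 of 13 higher and 0 lower, with B2M at 0.41 and TAP2 at 0.36. For the ERBB, AP-1 and antigen presentation lists the count of lower genes was 0 by edgeR, at an unadjusted p under 0.05 and by DESeq2 alike.

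Of 20 DNA replication genes 12 were lower, 0 higher and 8 not called, with a median net log2 change of -0.15, and the count of lower genes was 7 without S249C_UTX replicate 1 and 6 without WTFGFR3_EV replicate 3. MCM3, a subunit of the replicative helicase, had 104, 99.3 and 98.4 CPM in S249C_UTX libraries, against 117, 111 and 119 CPM in WTFGFR3_EV. CDKN1A, the cell cycle inhibitor p21, rose by 0.95 ± 0.09, all of it in the UTX average of 1.00, and CCND1 fell by 0.21. Mitosis genes had 3 of 20 lower and 0 higher, and in both lists 0 genes were higher at an unadjusted p under 0.05 or by DESeq2. G1 cyclins and CDK inhibitors, the list that holds those genes, had 5 of 16 lower and 2 higher. Of 12 genes of PRC2 and KDM6B 4 were lower, EZH2 by 0.23, and of 22 HOX genes 1. Of the KMT2C/KMT2D complex list 0 of 9 genes were called by edgeR or by DESeq2, and at an unadjusted p under 0.05 there was 1 higher and 1 lower. Serine synthesis and ATF4 genes had 6 of 19 lower and 2 higher, PHGDH falling by 0.51. Cholesterol synthesis genes had 5 of 24 lower and 1 higher, fatty acid synthesis genes 1 of 15 lower and 4 higher, NRF2 genes 4 of 16 lower and 1 higher, and hypoxia and glycolysis genes 2 of 22 lower and 3 higher. Over all genes tested 7.35% were lower and 10.2% higher, so the HOX and hypoxia counts lay near or under these shares.

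Matricellular and collagen genes were split, with 5 of 17 higher and 6 lower. SPP1 (osteopontin) had 39.3, 33.5 and 39.8 CPM in S249C_UTX libraries, against 103, 108 and 114 CPM in WTFGFR3_EV, a net change of -1.53 ± 0.06 that lay in the UTX average. LOXL4, a lysyl oxidase, rose by 1.00 and its relative LOX fell by 1.10. PPAR targets had 5 of 14 higher and 3 lower, with ANGPTL4, a lipase inhibitor, at 1.16 and the fatty acid transporter CD36 at -3.81. CD36 had few counts, with a mean of 1.28 CPM over the 12 libraries. Retinoid genes had 4 of 10 higher and 2 lower, with CRABP2, a retinoic acid carrier, at 1.16 and the retinoid-responsive RARRES1 at -1.62. Notch genes had 2 of 16 higher and 3 lower, and interferon-stimulated genes 6 of 21 higher and 3 lower, beside 10.2% higher and 7.35% lower over all genes tested. Ribosomal protein genes had 0 of 30 called by edgeR, with a median of -0.10, while 9 were lower at an unadjusted p under 0.05, 4 by DESeq2 and 17 without the 2 libraries that stood apart. Markers of cells that a pure line should lack were measured as well. Of 5 fibroblast markers tested 2 were lower, with a summed level of 22.05 to 23.7 CPM in S249C_UTX libraries and 30.9 to 32.4 CPM in WTFGFR3_EV libraries. Of 7 leukocyte and endothelial markers 2 were lower, with a summed level of 11.7 to 14.2 CPM and of 17.9 to 19.95 CPM in those groups. CD3E, 1 of these 2, was at 0.0735, 0 and 0.0713 CPM in S249C_UTX libraries. Its level was higher in WTFGFR3_EV libraries, with a net log2 change of -5.11 ± 0.73 (edgeR adjusted p = 3.71e-06). By the same measure, urothelial markers of the labelled cell type were detected. The luminal list summed to 7741 to 8512 CPM in S249C_UTX and 7618 to 7947 CPM in WTFGFR3_EV libraries. The basal list summed to 12260 to 13020 CPM and 12840 to 13410 CPM in those groups. The part of other cells in the results was not tested.

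**Figure D5:**
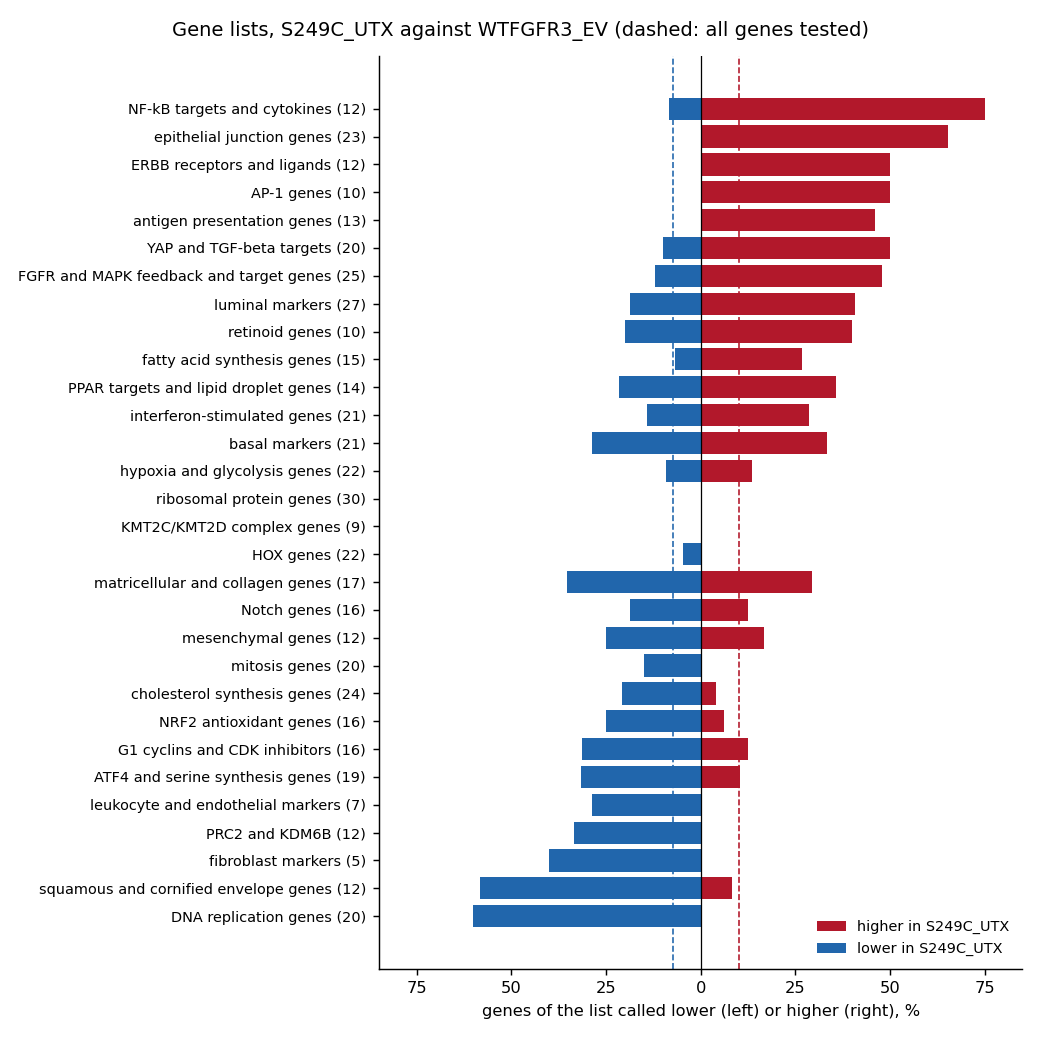
Share of each gene list called lower (left, blue) or higher (right, red) in S249C_UTX against WTFGFR3_EV, in percent of its tested genes, whose number stands after each name; dashed lines mark 7.35% lower and 10.2% higher over all genes tested. NF-kB targets (9 of 12) and junction genes (15 of 23) lie furthest to the right, and squamous genes (7 of 12) and DNA replication genes (12 of 20) furthest to the left.

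The promoters of 4 genes that stand for the patterns above are shown from RefSeq (GRCh38.p14), each from 250 bases before to 50 bases after the annotated start and read along the gene's strand. PTX3 is the offset gene with the largest averages, IGFBP2 the largest opposed rise named, and CAPN8 and TENM2 are adding genes, higher and lower. Capitals mark matches to any of 5 motifs searched on both strands, AP-1 (TGANTCA), TEAD (GGAATG), the nuclear receptor half-site (AGGTCA), ETS (CCGGAAGT) and HIF (ACGTG), none of which contains another.
PTX3, chr3:157436600-157436899, plus strand: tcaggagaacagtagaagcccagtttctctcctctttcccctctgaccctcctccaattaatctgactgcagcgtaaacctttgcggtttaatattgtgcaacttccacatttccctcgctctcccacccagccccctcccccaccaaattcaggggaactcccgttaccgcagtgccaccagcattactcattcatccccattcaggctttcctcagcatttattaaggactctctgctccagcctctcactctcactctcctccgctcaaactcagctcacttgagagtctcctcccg
IGFBP2, chr2:216632578-216632877, plus strand: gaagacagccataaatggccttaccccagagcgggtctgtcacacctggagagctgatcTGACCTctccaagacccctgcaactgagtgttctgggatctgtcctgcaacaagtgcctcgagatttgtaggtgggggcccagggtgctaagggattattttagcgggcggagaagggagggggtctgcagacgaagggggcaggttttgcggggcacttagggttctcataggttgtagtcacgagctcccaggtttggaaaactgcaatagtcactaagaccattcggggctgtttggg
CAPN8, chr1:223665652-223665951, minus strand: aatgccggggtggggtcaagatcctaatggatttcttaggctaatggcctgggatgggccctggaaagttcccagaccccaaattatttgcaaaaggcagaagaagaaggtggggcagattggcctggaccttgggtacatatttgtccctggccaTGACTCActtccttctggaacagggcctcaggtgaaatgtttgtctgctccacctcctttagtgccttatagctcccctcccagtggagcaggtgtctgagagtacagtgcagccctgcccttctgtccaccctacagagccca
TENM2, chr5:167072992-167073291, plus strand: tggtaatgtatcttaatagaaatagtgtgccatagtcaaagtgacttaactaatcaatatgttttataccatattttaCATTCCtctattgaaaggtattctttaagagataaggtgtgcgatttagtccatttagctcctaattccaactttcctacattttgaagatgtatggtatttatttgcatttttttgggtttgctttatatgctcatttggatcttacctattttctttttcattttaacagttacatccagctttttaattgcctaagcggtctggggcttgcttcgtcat
IGFBP2 held a nuclear receptor half-site, on the opposite strand, CAPN8 an AP-1 match 94 bases before the start and TENM2 a TEAD match on the opposite strand, while none of the 5 motifs was found in the PTX3 window. Matched promoters numbered 28 of opposed genes with UTX up, 26 with UTX down, 8 of higher and 26 of lower adding genes, and 12193 of all genes tested. AP-1 letters were in 5, 1, 1 and 2 of these 4 sets in that order, against 5.17% of all. TEAD letters were in 3, 3, 1 and 8, against 11.2% of all, and half-site letters in 4, 2, 1 and 2, against 10.2%. HIF letters were in 3, 8, 2 and 4, against 25.9%, and ETS letters in 0 of each set, against 8.02%. The shares in the sets thus lay on both sides of those in all promoters, on few promoters each, and are given as a description of letters in short windows.

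The series also holds UMUC1 cells without an FGFR3 vector, from another library kit and another UTX vector, grown in the same serum medium (WT_full with UTX, EV_full with empty vector, 3 libraries each). In these independent libraries 28.4% of 19629 genes were called higher with UTX and 29.2% lower, so a matching direction is common. Of the 43 opposed genes with UTX up 41 were tested there, 22 higher and 14 lower, and of the 31 with UTX down 24, 3 higher and 12 lower. Of the 12 higher adding genes 8 were tested, 7 higher and 0 lower. Of the 40 lower adding genes 32 were tested, 11 lower and 9 higher, with a median log2 change of 0.06. KRT5 had 177, 167 and 158 CPM in WT_full libraries, against 2264, 2204 and 2393 CPM in EV_full, and NDRG1 had 70.3, 73.9 and 74.1 CPM in WT_full, against 28.3, 31.2 and 28.5 CPM in EV_full. Of the 7 offset genes, NDRG1, WSCD2, FN1 and PTX3 were called there with the sign of their UTX average. NRP1 at 0.53 and TNFSF10 at -0.24 were called with the opposite sign (edgeR adjusted p = 0.0091 and 0.0031). EGLN3 was not called (edgeR adjusted p = 0.051). EYA2 went the other way from its fall above, with 5.78, 5.61 and 5.31 CPM in WT_full libraries, against 1.13, 1.38 and 1.17 CPM in EV_full. CD36 did likewise, called higher there at 1.87 (edgeR adjusted p = 6.35e-05), against a UTX average of -2.98 in the FGFR3 experiment. FGFR3 without a vector had 132, 123 and 131 CPM in WT_full and 142, 151 and 139 CPM in EV_full libraries.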

How the data were processed

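The deposited values are expected counts per gene (estimated counts), which the authors deposited as whole numbers. The submitters' processing notes name Salmon 0.8, DESeq2, hg19 and GRCh37, without the step each was used for. Per the labels' protocols, RNA was purified with the Qiagen RNeasy kit and libraries of the FGFR3 experiment were made with NEBNext Ultra II RNA. No source used here states strand, trimming or mapping settings, so values of overlapping, antisense and near-identical genes, keratins among them, are uncertain. Symbols came from the deposited table for 15696 IDs and from the reference names for 1402, and 2975 IDs had none.

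The 12 libraries of the FGFR3 experiment were fitted with edgeR 4.0.16 (R 4.3.3) with 1 mean per group, filterByExpr by group, TMM and the quasi-likelihood test, over 19399 genes. The biological coefficient of variation was 6.05%. The net change, the 2 averages, the 4 single steps and the interaction are contrasts of this 1 fit, so they share libraries. Intervals cover 95% and rest on the moderated dispersion. The 18 libraries of the other experiment were fitted separately in the same way. The script was tested on simulated data for this contrast over 19045 genes. At a true log2 change of 1, 75% of simulated offset genes and 100% of adding genes were recovered. Of the unchanged genes 0 were classed and 4 had a called net change, and the interaction was called for 0 genes. The simulated offset and adding genes were drawn only from genes with a mean of at least 2 CPM, and no library was made to stand apart. Recovery of genes with fewer counts, of averages nearer the 1.5-fold limit, or of genes with a called interaction was not tested.

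Genes named by rule were the 2 vector genes, the 8 largest rises and 8 largest falls at 2 CPM or more with groups that did not overlap, up to 5 offset or adding genes per direction, and up to 3 called genes per list with the smallest adjusted p; 35 more, and other list members given, were named after their values were seen. The members, the 31 lists and the rules were chosen with earlier results of these data known. The mitochondrial share is that of symbols starting with MT-, all rRNA and tRNA genes; the list of 13 mitochondrial protein-coding genes was not analysed here. Alternatives were other size factors, DESeq2 1.42.0, no filter, a replicate block, each library left out, the 6 libraries alone, and other fold limits; leaving out 2 libraries together was added after seeing the data.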

Additional observations from a re-analysis of the deposited data

Results flagged for a closer look

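For 19 of the genes named, the UTX effect with S249C differed from that with wild type FGFR3, by edgeR's interaction test at an adjusted p under 0.05; over all genes tested 133 did (0.686%), of which 111 were positive. Values are the UTX effect with S249C minus that with wild type FGFR3, in log2. The largest were ABCA4 at 4.97, CALML3 at 2.97, CYP1A2 at 2.62, FBN1 at 2.49, MAP2 at 2.37 and EYA2 at 1.93. SPARC was at 1.24, IGFBP2 at 0.94, AKR1C2 at 0.86, S100A9 at 0.80 and IVL at 0.58. NRP1, an offset gene, was at 0.49, and KRT17 and KRT13 were at 0.48 each. CDH2 and ELF3 were at 0.47 each, SPP1 at 0.45 and CGN at 0.44. NGFR was the only negative value among the 19, at -1.36.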

How the results depend on the processing

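Between the 12 analyses that left out 1 library each, net higher genes ranged from 1472 to 2135 (1984 reported) and net lower genes from 827 to 1565 (1425 reported). Offset genes ranged from 4 to 9 (7 reported), opposed genes from 61 to 87 (74 reported), higher adding genes from 8 to 17 (12 reported) and lower adding genes from 29 to 38 (40 reported). Fold limits moved the classes by their construction: 22 genes were offset with an interval within 1.5-fold, and with each average at least 2-fold there were 1 offset, 23 opposed, 3 higher adding and 18 lower adding genes. Same-numbered S249C_UTX and WTFGFR3_EV replicates had correlations of their deviations of -0.08, 0.04 and -0.01. Among S249C_UTX libraries none of the WTFGFR3_EV libraries correlated best with the one of its own number, so the numbers showed no pairing of these 2 groups. Between other groups it was mixed. Same-numbered WTFGFR3_UTX and S249C_UTX libraries were at 0.19, 0.001 and 0.31, while WTFGFR3_EV replicate 2 and S249C_EV replicate 3 were at 0.27. Pairing between other groups is thus not excluded. With a replicate block there were 1890 higher, 1265 lower, 7 offset, 72 opposed, 11 higher adding and 34 lower adding genes. DESeq2 gave 1758 higher and 1318 lower, and the 6 libraries alone 1760 and 1140. Of 2484 values of the 138 named genes under these alternatives 2454 kept their direction and call, 29 kept the direction and lost the call, in 7 genes (BDNF, CCNB2, COL1A1, ETV4, FOSL2, HOXB9 and SERPINB2), 1 gained it (ETV5) and 0 reversed. Of 1116 list counts 72 moved by over 1.5 times; the cause was not tested. Genes at a few CPM, such as TMEM265, CD3E and KRT20, are limited by their depth.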
